A study of Homo sapiens with 6 samples.

Results

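The genes described here encode the enzymes that build cholesterol and fatty acids from acetyl-CoA, together with the proteins that set their transcription. They were measured in HT-29 xenografts, tumours grown in mice from an established cell line of a human colorectal adenocarcinoma. The list named 32 genes, of which 18 form the sterol branch, 9 the fatty acid branch and 5 the control and transport of sterols. For each gene the probe set (a group of short array probes read as 1 value) with the highest mean over the 6 arrays was used. Of the 32, 29 had a probe set that names that gene alone, out of 19775 such genes on the array. CYP51A1 and FADS1 were named only together with another gene, LRRD1 and MIR1908, so their probe sets are given by value and kept out of the counts, and FDFT1 was not analysed here.

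Cholesterol synthesis joins acetyl-CoA units into mevalonate and then into isoprenoid chains, 2 of which are fused into squalene, which is oxidised, closed into a ring and trimmed to cholesterol. Fatty acid synthesis starts from the same acetyl-CoA, extends it by malonyl units to palmitate, and then elongates and desaturates the product. Both branches are under transcription factors of the SREBP family, which are held in the endoplasmic reticulum by INSIG proteins when sterols are plentiful and are escorted to the Golgi by SCAP when sterols are scarce. SREBP-2 acts mainly on sterol genes and SREBP-1 mainly on fatty acid genes. Tumour cells, those of the colon included, commonly make their own membrane lipids in this way.

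HT-29 cells were injected on both sides, into the femoral regions, of Balb/c (nu/nu) mice, an immunodeficient strain, at an age of 6 to 8 weeks. The treated pool held RNA of tumours heated for 30 min by an electromagnetic field (modulated electro-hyperthermia) on day 18 and sampled 4 h later. The opposite pool came from the tumours on the side opposite to the heated one, which the labels call untreated, and the control pool from control xenografts. Dissected frozen sections were the source of the RNA in all 3 groups, which share cell line and host. Each group was 1 pool hybridised to 2 arrays, called technical replicates in the labels, and the number of animals per pool is not given in the sources used here. No test between conditions was therefore possible, and no difference below has a replicate check between animals. The 2 arrays measure array error only, and every SD is theirs.

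Values are log2 expression after GCRMA, a method that corrects the background, normalizes across arrays and joins the probes of a set. A gene was called detected where the mean of a pool was at or above 5. Of the 29 genes counted, 25 were detected, 13 in the sterol branch, 7 in the fatty acid branch and all 5 of control and transport. MVK, MVD, TM7SF2 and FADS2 lay below 5 in every pool. A gene was counted as higher or lower where the difference of its pool means was 0.3 or more in log2 units (1.23-fold), each of the 4 array pairs differed in that direction and the brighter pool had both arrays at 5 or above. Between the 2 arrays of a pool no detected member differed by 0.3. Their largest gap was 0.25, for SREBF2 on the treated arrays, and 1.07% to 2.31% of all detected genes differed by 0.3 or more in that way.

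The tissue and the hybridisation were checked on other probe sets. Of 12 colon epithelium markers 9 were detected, and their summed signal on the linear scale was 35204 to 35474 on treated, 35537 to 35584 on opposite and 32520 to 32575 on control arrays. The detected ones differed by between -0.13 (CEACAM5) and 0.27 (KRT20) between treated and control pools, 5 of them above control on all array pairs and 3 below, while CDX2 and GPA33 lay at or near the lowest value of the table. CDH17, below 5 in every pool, stood at 4.48 in the treated, 4.72 in the opposite and 4.81 in the control pool. Fat cells also make these lipid enzymes. Of 10 adipocyte markers only PPARG, which colon epithelium expresses too, was detected, and PLIN1 and LPL lay at the lowest value of the table, 2.37. The host was a mouse and the probe sets name human genes, so these markers and those below could miss host cells of any type. Low values therefore cannot show that host fat was absent. The summed adipocyte markers were 294 to 299 on treated, 268 to 273 on opposite and 350 to 360 on control arrays, and PPARG differed by -0.31 between treated and control pools. Most of each sum was the signal of PPARG itself, at 7.86 in the treated, 7.70 in the opposite and 8.17 in the control pool. Markers of muscle and of fibroblasts differed between the pools. Summed muscle markers (3 of 9 detected, ACTA1, MYL11 and TNNT3) were 220 to 234 on treated, 159 to 160 on opposite and 119.6 to 122 on control arrays. Of these, ACTA1 reached 5 only in the treated pool (5.27, against 4.11 in the opposite and 3.10 in the control pool). MYL11 stood at 6.65, 5.89 and 5.05 in that order and TNNT3 at 5.49, 5.44 and 5.44. MYL1, MYH1, MYH4 and CKM lay near the lowest value of the table. Summed fibroblast and matrix markers (4 of 9 detected) were 798 to 810, 672 to 687 and 363 to 400 in the same order, with TAGLN 1.66 and VIM 1.14 higher in the treated pool than in control. KRT10, FLT1 and LYZ, the single detected markers of epidermis, endothelium and leukocytes, differed by -0.07, -0.04 and 0.23, and neither of the 2 red blood cell markers on the array was detected (0 of 2). KRT14 of the epidermal list, below 5 in every pool, stood at 4.07 in the treated, 3.04 in the opposite and 2.41 in the control pool. LYZ stood at 11.8 in the treated pool, while the other leukocyte markers measured (PTPRC, CD14, ITGAM and CD3E) lay below 5 in every pool. The part of these markers in the results below was not tested. In such bulk RNA, fewer cells of a type and less RNA per cell cannot be told apart.

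The treated pool was first set against the control pool to see which lipid synthesis genes differed 4 h after heating. Of the 25 detected genes 6 were higher and 2 lower, beside 11.5% higher and 11.4% lower of all 7204 genes detected in either pool. The higher ones were HMGCS1, SQLE and MSMO1 of the sterol branch, INSIG1 and STARD4 of its control and transport, and SCD of the fatty acid branch. The lower ones were PMVK and FASN. The differences were small. None of the 25 reached 2-fold, a size that 0.625% of all detected genes passed upwards and 0.0972% downwards, and the largest was 1.47-fold for SQLE. In 13 members both treated arrays lay above both control arrays and in 6 both lay below, against 34.7% and 40.5% of all detected genes.

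Among the isoprenoid steps, HMGCS1, the synthase that makes HMG-CoA, stood at 9.84 and 9.83 on the treated arrays, against 9.57 and 9.40 on the control arrays. Both treated arrays lay above both control arrays, and the pool means differed by 0.35 (1.27-fold). A second HMGCS1 probe set differed by 0.30. PMVK, the kinase that phosphorylates phosphomevalonate, went the other way, at 6.22 and 6.14 on treated against 6.61 and 6.50 on control arrays, a difference of -0.37. FDPS, the synthase of farnesyl diphosphate, stood at 9.28 and 9.21 on treated and at 9.11 and 9.04 on control arrays. Its groups did not overlap, but the difference of 0.18 was below the minimum. ACAT2, the cytosolic thiolase at the start of the pathway, and IDI1, the isomerase of isopentenyl diphosphate, differed by 0.05 and 0.01, with overlapping arrays.

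In the part of the branch that leads through squalene to cholesterol, SQLE had the largest difference of all members. SQLE, the epoxidase of squalene and a point of control of the pathway, stood at 10.10 on both treated arrays, against 9.53 and 9.55 on the control arrays. The pool means were 10.10 ± 0.00071 in the treated and 9.54 ± 0.016 in the control pool (SD, 2 arrays each), a difference of 0.56. This value rests on the brightest SQLE probe set. A second one, at 9.19 and 9.24 on treated against 9.29 and 9.31 on control arrays, differed by -0.09, and the third differed by 0.29. MSMO1, an oxidase that removes methyl groups from the sterol ring, stood at 8.80 and 8.86 on treated and at 8.47 and 8.46 on control arrays, a difference of 0.36 (1.29-fold).

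The probe set annotated with both CYP51A1, the lanosterol demethylase, and LRRD1 stood at 8.99 and 9.01 on treated against 8.60 and 8.58 on control arrays. It differed by 0.41, and the other probe set with that annotation differed by 0.42. Counting it would bring the higher members to 7. LSS, which closes the sterol ring before that demethylation, differed by 0.15 without overlap of the arrays. NSDHL and HSD17B7, which remove methyl groups together with MSMO1, and EBP, SC5D and DHCR7, which set the double bonds, lay between -0.05 and 0.04. Of the 8 detected genes of this stretch 2 were higher and 0 lower, and of the 5 detected isoprenoid genes 1 was higher and 1 lower. The shares of all detected genes were 11.5% higher and 11.4% lower.

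Among the genes of control and transport INSIG1 and STARD4, both known targets of SREBP-2, were higher, and the SREBP genes and SCAP were not called. INSIG1, the sterol-dependent anchor of SCAP, stood at 6.98 and 7.05 on treated against 6.67 and 6.60 on control arrays, a difference of 0.38. Its other detected probe sets differed by 0.07 and -0.02. STARD4, a carrier of sterols between membranes, stood at 5.94 and 6.14 on treated against 5.60 and 5.74 on control arrays, a difference of 0.37. Both genes kept their treated arrays above their control arrays. SREBF1, which encodes SREBP-1, stood at 5.67 on both treated arrays and at 5.72 and 5.84 on control arrays, a difference of -0.11. SREBF2, which encodes SREBP-2, differed by -0.0050 with overlapping arrays, and SCAP by -0.08. A second SREBF2 probe set, whose treated mean missed the floor, at 5.003 and 4.996 on treated arrays against 4.84 and 4.69 on control arrays, differed by 0.23.

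In the fatty acid branch 1 of 7 detected genes was higher and 1 lower, beside 11.5% and 11.4% of all detected genes. SCD, the desaturase that makes oleate, stood at 10.82 and 10.88 on treated against 10.54 and 10.55 on control arrays, a difference of 0.31, and its second probe set differed by 0.19. FASN, the synthase that builds palmitate, stood at 5.33 and 5.29 on treated against 5.60 and 5.65 on control arrays. It differed by -0.32, close above the level of detection. ACLY (0.11), which makes cytosolic acetyl-CoA from citrate, ACSS2 (0.13), which makes it from acetate, ACACA (0.13), the acetyl-CoA carboxylase, and ELOVL6 (0.16), an elongase, lay above control on all array pairs without reaching the minimum. The other detected ACLY probe sets differed by 0.22 and 0.37, both with all array pairs above control, and the second passed the minimum that the brightest one missed. For ELOVL6 another probe set, at 5.12 and 5.14 on treated and at 5.61 and 5.70 on control arrays, differed by -0.52. LPIN1, a phosphatidate phosphatase, lay lower on all pairs, with a difference of -0.22. The probe sets of FADS2 and of FADS1 with MIR1908, for desaturases of polyunsaturated fatty acids, lay near the lowest value of the table.

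**Figure D1:**
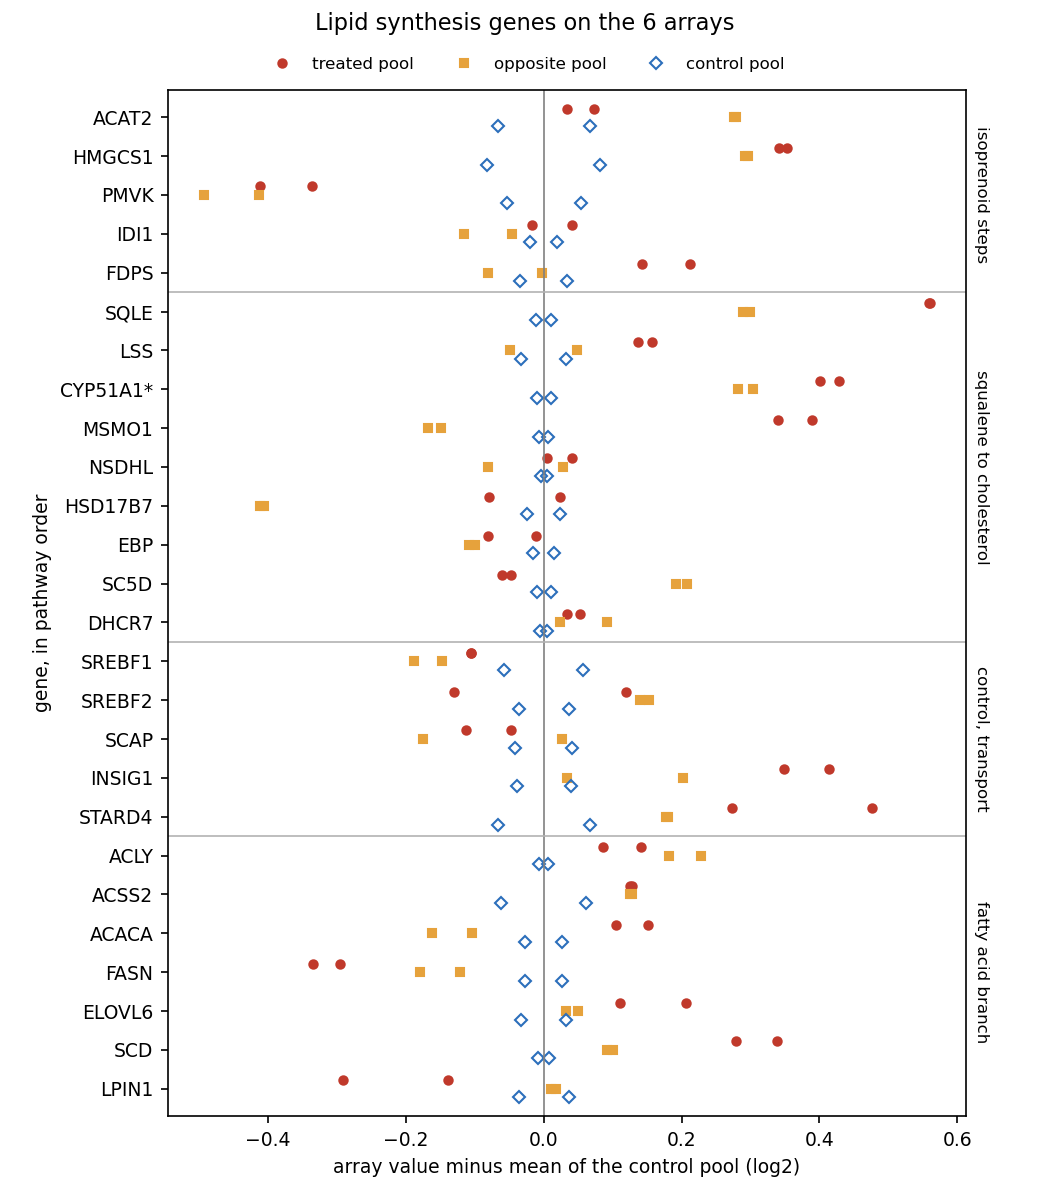
Each row is a detected gene and each symbol 1 array, as its log2 value minus the mean of the control pool, with circles for treated, squares for opposite and open diamonds for control arrays. The asterisk marks the probe set shared by CYP51A1 and LRRD1. The treated arrays of SQLE stand farthest right, 0.56 above control, while those of PMVK and FASN lie to the left.

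Over the branches, the median difference between treated and control pools was 0.04 ± 0.011 for the 13 sterol genes and 0.13 ± 0.014 for the 7 fatty acid genes (SD from the single arrays), against -0.02 for all detected genes. The fatty acid median was the value of ACSS2. Mean differences had the other order, 0.09 for the sterol and 0.04 for the fatty acid branch, against -0.00057 for all detected genes. The order of the branches thus depends on the summary used. Of the 13 sterol genes 3 were higher and 1 lower, and of the 7 fatty acid genes 1 was higher and 1 lower. Of all detected genes 11.5% were higher and 11.4% lower, and the fatty acid counts lay near those shares. Both branches held calls in both directions. Sterol genes ran from -0.37 (PMVK) to 0.56 (SQLE) and fatty acid genes from -0.32 (FASN) to 0.31 (SCD). The calls of STARD4, SCD and FASN were lost without treated array 2 (4 higher, 1 lower), and those of HMGCS1 and FASN without control array 2.

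Promoter sequences are shown for the genes that were higher in the treated pool and have a window in the table used, to show what they hold of the elements that SREBP and its partner NF-Y bind. The RefSeq windows (GRCh38.p14) run from 250 bases before to 50 after a gene's start, and 28 of the 32 genes had at least 1. The 8-letter core CACNCCAC of the sterol regulatory element and the letters CCAAT, the box bound by NF-Y, were searched on both strands, and matches are in capitals. INSIG1 lies at chr7:155297628-155297927 (plus strand), SCD at chr10:100346983-100347282 (plus), HMGCS1 at chr5:43313363-43313662 (minus), MSMO1 at chr4:165327419-165327718 (plus) and STARD4 at chr5:111512486-111512785 (minus).
INSIG1: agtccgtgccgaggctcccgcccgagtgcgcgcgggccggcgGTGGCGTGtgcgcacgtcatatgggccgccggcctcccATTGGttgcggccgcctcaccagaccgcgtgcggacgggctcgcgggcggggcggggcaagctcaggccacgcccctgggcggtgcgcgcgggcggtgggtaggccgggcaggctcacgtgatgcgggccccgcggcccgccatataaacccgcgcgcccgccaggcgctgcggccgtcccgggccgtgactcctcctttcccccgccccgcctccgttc
SCD: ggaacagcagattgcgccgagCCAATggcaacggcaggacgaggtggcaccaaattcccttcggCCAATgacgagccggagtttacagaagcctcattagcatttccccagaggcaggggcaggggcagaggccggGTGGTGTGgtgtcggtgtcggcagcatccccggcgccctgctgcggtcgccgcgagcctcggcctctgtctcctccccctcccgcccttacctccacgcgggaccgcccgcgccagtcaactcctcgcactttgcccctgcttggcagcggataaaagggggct
HMGCS1: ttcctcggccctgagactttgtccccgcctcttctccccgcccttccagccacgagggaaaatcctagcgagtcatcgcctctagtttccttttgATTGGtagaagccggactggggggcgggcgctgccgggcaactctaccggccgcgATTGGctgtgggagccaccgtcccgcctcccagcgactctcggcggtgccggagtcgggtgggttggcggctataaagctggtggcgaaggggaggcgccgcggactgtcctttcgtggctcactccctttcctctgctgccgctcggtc
MSMO1: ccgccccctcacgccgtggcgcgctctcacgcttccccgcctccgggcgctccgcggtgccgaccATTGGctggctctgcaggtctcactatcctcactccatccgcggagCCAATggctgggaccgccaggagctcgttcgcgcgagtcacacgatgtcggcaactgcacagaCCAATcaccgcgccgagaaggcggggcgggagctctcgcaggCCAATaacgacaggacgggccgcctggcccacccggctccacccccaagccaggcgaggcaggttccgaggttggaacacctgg
STARD4: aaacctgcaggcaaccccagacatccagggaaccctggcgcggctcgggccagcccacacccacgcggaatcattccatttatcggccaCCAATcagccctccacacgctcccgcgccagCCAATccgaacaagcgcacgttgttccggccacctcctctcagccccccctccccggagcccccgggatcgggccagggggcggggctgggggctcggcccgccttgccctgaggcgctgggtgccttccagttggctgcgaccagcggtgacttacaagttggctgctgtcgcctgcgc
INSIG1 and SCD each hold 1 match of the core on the minus strand of the window, beside 1 and 2 CCAAT boxes. HMGCS1, MSMO1 and STARD4 hold 2, 4 and 2 CCAAT boxes and no match of these core letters. The core occurred in a window of 6 of the 28 genes with one (ACACA, IDI1, INSIG1, SC5D, SCD and SREBF2), against 7.05% of all 27305 genes in the table, and CCAAT in 21 of the 28, against 39.7%. The longer form TCACNCCAC, which contains the core, was found only for SREBF2, against 1.39% of all genes. HMGCS1 has a second window that overlaps the one shown. A match is a run of letters and not a measured site, and genes with and without a match were found among those higher and those not called.

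The treated pool was next set against the opposite pool, which asks how tumours of the heated and of the opposite side differed. Here 2 of 25 detected genes were higher and 0 lower, beside 11.1% and 6.68% of all 7155 detected genes. None reached 2-fold, which 0.28% of all genes passed upwards and 0.0559% downwards. MSMO1 stood at 8.80 and 8.86 on treated against 8.30 and 8.32 on opposite arrays, a difference of 0.52 (1.44-fold). HSD17B7, the ketoreductase of the same demethylation complex, stood at 7.82 and 7.93 on treated against 7.50 and 7.49 on opposite arrays, a difference of 0.38 (1.30-fold). NSDHL, which works with these enzymes, differed by 0.05 with overlapping arrays. The only HSD17B7 probe set is of the _x_at kind, whose probes may also match related transcripts.

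SQLE, INSIG1 and ACACA came next, without reaching the minimum. SQLE stood at 10.10 on both treated arrays against 9.83 and 9.84 on opposite arrays, a difference of 0.27, and its 3 detected probe sets all differed in that direction, by 0.14 to 0.27. INSIG1 differed by 0.26 on its brightest probe set but by -0.05 and -0.31 on the others. ACACA stood at 8.45 and 8.41 on treated against 8.14 and 8.20 on opposite arrays, a difference of 0.26. FDPS differed by 0.22, SCD by 0.21 and STARD4 by 0.20. HMGCS1, higher than control in the treated pool, differed from the opposite pool by only 0.05. ACAT2 and SC5D, the desaturase before the last steps, lay on the other side. ACAT2 stood at 6.77 and 6.73 on treated against 6.97 and 6.98 on opposite arrays (-0.22), and SC5D at 6.62 and 6.60 against 6.87 and 6.86 (-0.25).

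Of the fatty acid genes none was called against the opposite pool, with ACACA highest (0.26) and LPIN1 lowest (-0.23). Of all detected genes 11.1% were higher and 6.68% lower there. FASN differed by -0.16 and ACSS2 by 0.00 in this comparison. The sterol branch had a median of 0.08 ± 0.034 and the fatty acid branch one of 0.00 ± 0.0030, against 0.01 for all detected genes. In 15 members both treated arrays lay above both opposite arrays and in 6 below, against 38.6% and 33.2% of all detected genes.

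The opposite pool was set against the control pool to see whether tumours opposite to the heated side differed from control xenografts. Of 25 detected genes 0 were higher and 2 lower, beside 8.99% and 13.5% of all 7182 detected genes. No member reached 2-fold, a size passed by 0.237% of all detected genes upwards and 0.167% downwards. PMVK stood at 6.06 and 6.14 on opposite against 6.61 and 6.50 on control arrays, a difference of -0.45 (0.731 of the control level on the linear scale). HSD17B7 stood at 7.50 and 7.49 on opposite against 7.93 and 7.88 on control arrays, a difference of -0.41. PMVK was thus lower than control in the treated and in the opposite pool. HSD17B7 was lower in the opposite pool and differed by -0.03 between treated and control pools. No test of that contrast was possible with 1 pool each.

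HMGCS1 and SQLE fell just short of the minimum in the upward direction, each with a difference of 0.29. HMGCS1 stood at 9.78 on both opposite arrays against 9.57 and 9.40 on control arrays, so that the treated and the opposite arrays all lay above control. SQLE stood at 9.83 and 9.84 on opposite against 9.53 and 9.55 on control arrays, but its second probe set differed by -0.35. The shared probe set of CYP51A1 and LRRD1 also differed by 0.29. ACAT2 differed by 0.28, ACLY by 0.21 and SC5D by 0.20, all with both opposite arrays above both control arrays. The medians were -0.03 ± 0.051 for the sterol branch and 0.04 ± 0.021 for the fatty acid branch, against -0.02 for all detected genes. Members whose 2 opposite arrays lay above both control arrays numbered 10, and 8 lay below, against 34.0% and 42.4% of all detected genes. The 3 comparisons share pools, so the treated minus control difference of each gene is the sum of the other two.

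**Figure D2:**
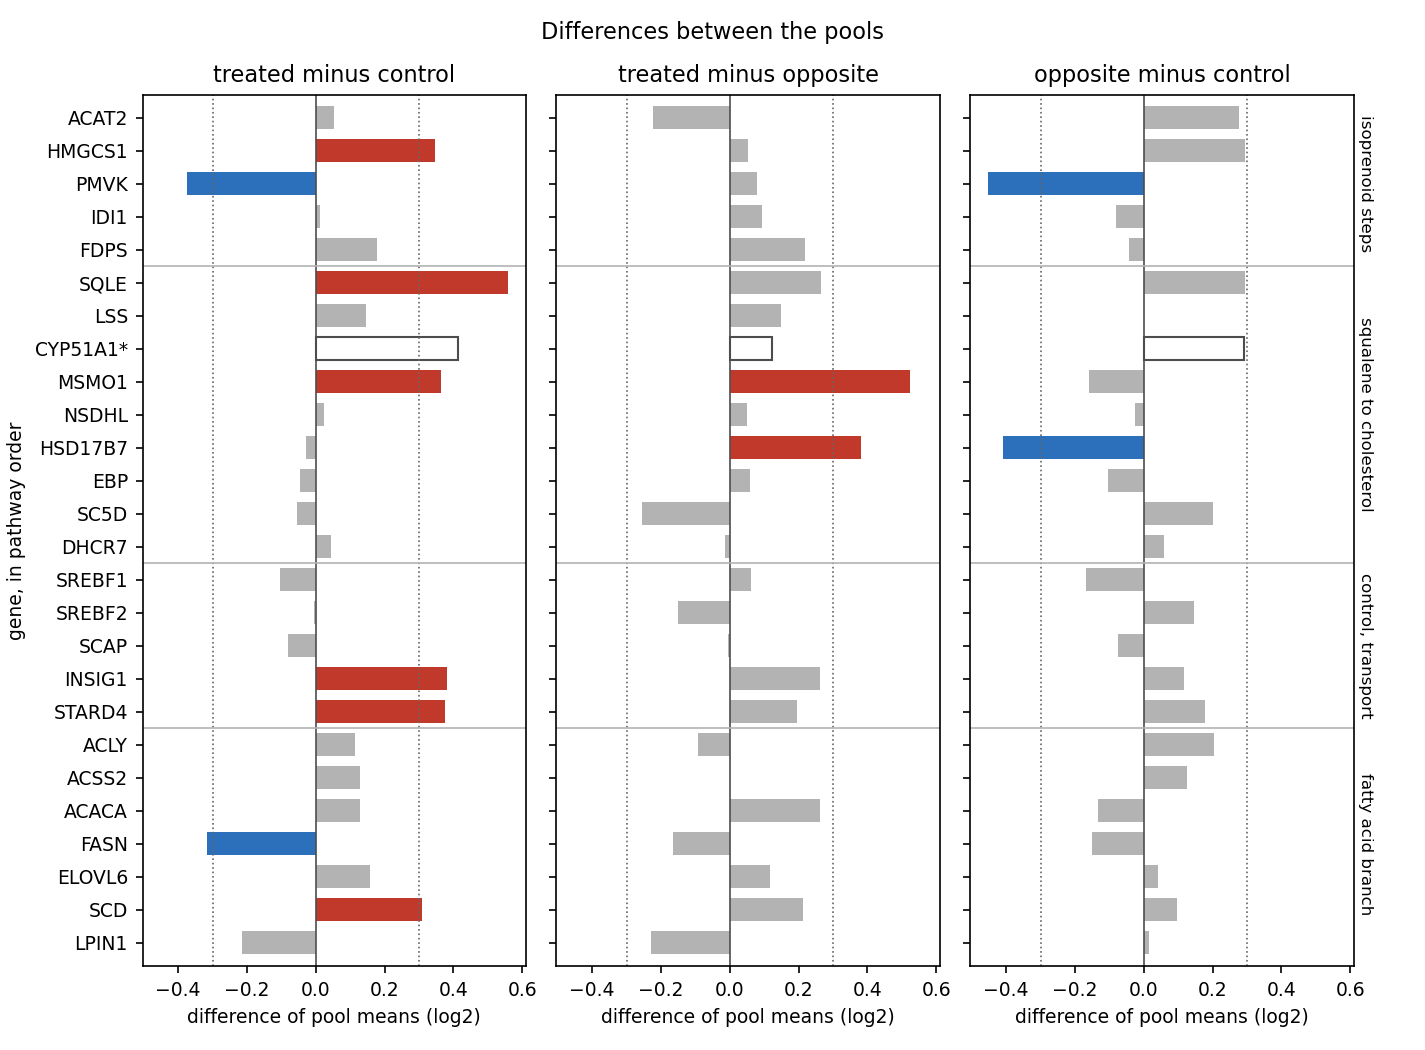
Bars give the difference of pool means (log2) for each detected gene in the 3 comparisons, with dotted lines at the minimum of 0.3 on either side of 0. Red bars were counted as higher, blue ones as lower, grey ones neither, and the open bar (asterisk) is the probe set shared by CYP51A1 and LRRD1. SQLE leads in treated minus control at 0.56 and MSMO1 in treated minus opposite at 0.52, while PMVK reaches -0.45 in opposite minus control.

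Read over the 3 pools, both treated arrays lay above the other 4 arrays for 10 of the 25 genes, namely HMGCS1, FDPS, SQLE, LSS, MSMO1, INSIG1, STARD4, ACACA, ELOVL6 and SCD. The same held for 21.0% of the 7267 genes detected in any pool. This order rests on the brightest probe set of each gene. FDPS, LSS, MSMO1, STARD4 and ACACA had no other detected probe set. For HMGCS1, SQLE, INSIG1, ELOVL6 and SCD at least 1 other detected probe set did not show it. That of ELOVL6 had treated arrays lowest, at 5.12 and 5.14, against 5.47 and 5.61 on opposite and 5.61 and 5.70 on control arrays. Both treated arrays lay below the other 4 for SC5D, FASN and LPIN1 (20.5% of all genes). The opposite arrays were lowest for 7 genes (PMVK, IDI1, MSMO1, HSD17B7, EBP, SREBF1 and ACACA, against 22.9%) and highest for ACAT2, SC5D, SREBF2 and ACLY (17.7%). Other detected probe sets of IDI1 and EBP did not have the opposite arrays lowest. The other detected probe sets of ACLY had both treated arrays above both opposite arrays, with differences of 0.17 and 0.07. The control arrays were lowest for HMGCS1, SQLE, DHCR7, STARD4, ACLY, ACSS2 and SCD (20.9%) and highest for PMVK, SREBF1 and FASN (27.0%). These orders are of the deposited values and were not recounted under the spike-in scalings below. With all spike-ins, treated minus opposite moved by -0.23 and opposite minus control by 0.24. The treated minus opposite gaps of HMGCS1, FDPS, LSS, STARD4, ELOVL6 and SCD (0.05 to 0.22) were smaller than that shift. So were the opposite minus control gaps of IDI1, MSMO1, EBP, SREBF1 and ACACA (-0.08 to -0.17).

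Several genes were read by more than 1 probe set, and these did not always run together. Of 10 such genes 6 had all detected probe sets on the same side of 0 in treated minus control, 5 in treated minus opposite and 4 in opposite minus control. HMGCS1 and SCD kept 1 sign in all 3 comparisons. LPIN1 did so in both comparisons of the treated pool. SQLE, INSIG1, EBP and ELOVL6 had probe sets on both sides of 0 in treated minus control. When the detected probe sets of a gene were averaged, HMGCS1 still reached the minimum in treated minus control, and SQLE, INSIG1 and SCD did not. MSMO1 and STARD4 have 1 probe set each, so averaging could not change their values.

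**Figure D3:**
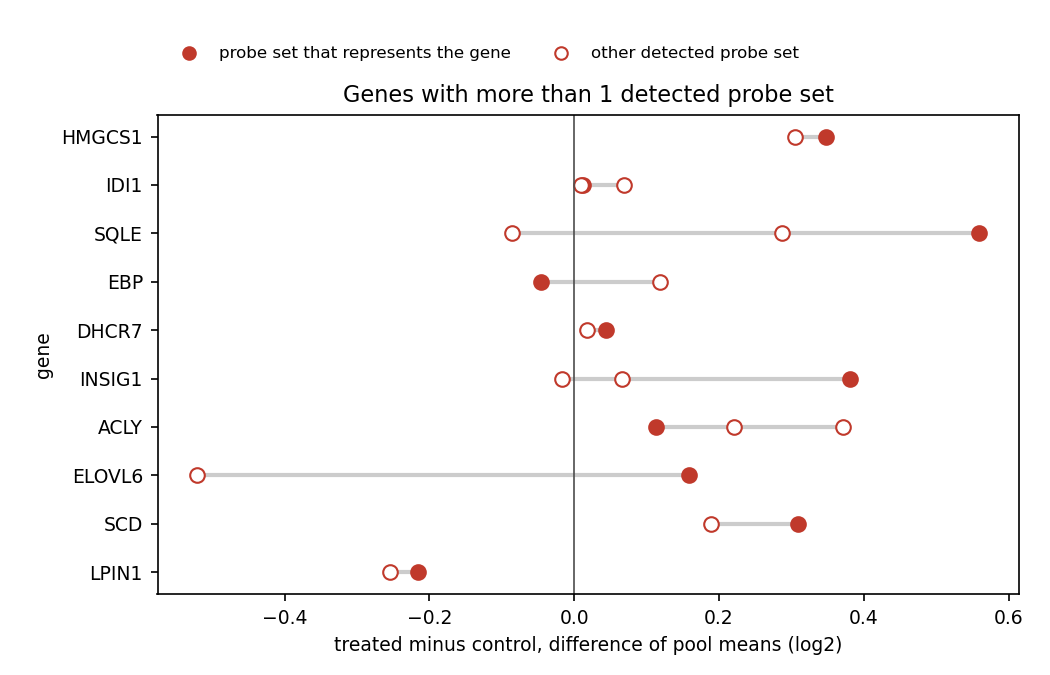
Each row is a gene with more than 1 detected probe set and each circle a probe set, placed by its treated minus control difference of pool means (log2). Filled circles are the probe sets that represent the genes. The circles of SQLE run from -0.09 to 0.56 and those of ELOVL6 from -0.52 to 0.16, while those of HMGCS1 lie at 0.30 and 0.35.

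The differences were recomputed after scaling the arrays to spike-in controls. These are bacterial and phage transcripts added in fixed amounts, some to the RNA (poly-A controls) and some to the hybridisation mix. Their 39 probe sets detected on all arrays had a median signal of 7.72 and 7.71 on treated, 7.52 and 7.47 on opposite and 7.72 and 7.74 on control arrays, so they were dimmest on the opposite arrays. Setting these medians equal moved every treated minus opposite difference by -0.23, every opposite minus control difference by 0.24 and every treated minus control difference by 0.01. With the hybridisation controls alone the shifts were -0.30, 0.20 and -0.10, and with the poly-A controls alone -0.15, 0.07 and -0.08. Such a shift is the same for every gene and leaves the gaps between genes as they are.

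Under the scaling to all spike-ins the treated minus control calls held the same 8 genes, beside 12.3% higher and 10.6% lower of all genes. That scaling shifted this comparison by 0.01, outside the -0.10 and -0.08 of the hybridisation and poly-A controls taken alone. A scaling by the median of spike-in differences shifted it by -0.13. It left SQLE higher and PMVK, FASN and LPIN1 lower (5.91% and 23.9% of all genes). With the hybridisation controls 1 gene, SQLE, remained higher and PMVK, FASN and LPIN1 were lower, beside 6.72% higher and 20.9% lower of all genes (477 and 1481 genes). With the poly-A controls SQLE remained higher and PMVK and FASN lower (7.36% and 19.0% of all genes). For treated minus opposite the scaling to all spike-ins left 0 members higher and made 6 lower, among them ACAT2, SC5D and FASN, while 2.59% of all genes were higher and 31.4% lower. For opposite minus control it made 10 members higher, HMGCS1, SQLE, INSIG1, STARD4 and SCD included, and 0 lower, while 33.4% of all genes were higher and 3.20% lower.

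The median of all detected genes moved with the same shift. As deposited, the sterol branch lay 0.06 above that median in treated minus control, 0.07 above it in treated minus opposite and -0.0075 from it in opposite minus control. For the fatty acid branch these distances were 0.14, -0.01 and 0.06. The sign of the sterol median turned under several scalings. In treated minus opposite the sterol median was 0.08 as deposited and -0.15 after scaling to all spike-ins, and in opposite minus control -0.03 as deposited and 0.21 after it.

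**Figure D4:**
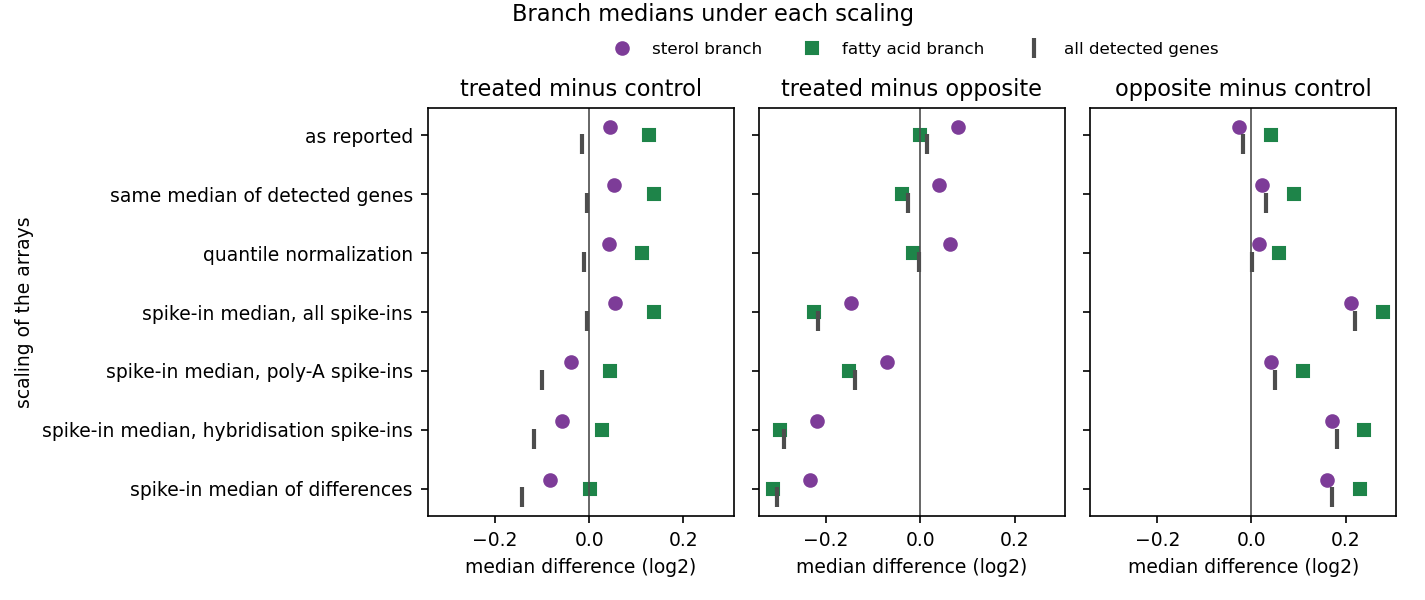
Symbols give the median difference (log2) of the sterol branch (circles), the fatty acid branch (squares) and all detected genes (bars) in the 3 comparisons, with 1 row per scaling of the arrays. The spike-in scalings carry all 3 medians together below 0 in treated minus opposite and above 0 in opposite minus control, and the sterol median of 0.08 becomes -0.15 with all spike-ins.

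Genes that sense, move and store sterols were read beside the synthesis enzymes. Of 14 detected genes for sterol sensing, transport and esterification, 2 were higher than control and 5 lower than control in the treated pool, beside 11.5% and 11.4% of all detected genes, with a median difference of -0.02. The largest differences were all downwards. MYLIP, a ubiquitin ligase and target of the sterol receptor LXR, stood at 4.94 and 4.92 on treated, 5.05 and 5.14 on opposite and 5.89 and 5.62 on control arrays (-0.83), its treated mean lying below the floor of 5. SOAT1, which stores cholesterol as esters, stood at 5.31 and 5.36 on treated, 5.56 and 5.53 on opposite and 6.11 and 6.10 on control arrays (-0.77). NR1H3, which encodes LXR alpha, stood at 6.44 and 6.51, 6.60 and 6.44, and 7.26 and 7.18 in the same order (-0.75). All 3 were also lower in the opposite than in the control pool, with differences of -0.66, -0.56 and -0.70, and NPC1, which moves cholesterol out of lysosomes, was higher there by 0.31, beside 8.99% higher and 13.5% lower of all detected genes. Against the opposite pool the treated one was higher for LIPA, the lysosomal lipase (0.50), and for MBTPS2, a protease that releases SREBP (0.40), and lower for NPC2, the partner of NPC1 (-0.43), beside 11.1% higher and 6.68% lower of all detected genes.

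Of 14 detected genes of fatty acid supply, elongation and glycerolipids, 4 were higher than control and 0 lower in the treated pool, beside 11.5% and 11.4% of all detected genes, with a median difference of -0.0022. GPAM, the acyltransferase that starts glycerolipid synthesis, stood at 5.49 and 5.63 on treated, 4.67 and 4.86 on opposite and 4.63 and 4.74 on control arrays. It differed from control by 0.88 and from the opposite pool by 0.80, the means of both lying below 5. LPIN2, a paralogue of LPIN1, was higher by 0.57, ACSL1, an acyl-CoA synthetase, by 0.49 and ME1, a source of NADPH, by 0.36. LPIN2 and ACSL1 were also higher in the opposite than in the control pool, by 0.52 and 0.43, beside 8.99% of all detected genes. TECR, an elongation reductase, and DGAT1, which makes triglyceride, were lower there, with differences of -0.33 and -0.31, beside 13.5% of all detected genes.

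The control probe sets for RNA integrity differed as well. For ACTB the 5′ probe set differed by 1.12 between treated and control pools and the 3′ one by 0.23, and for GAPDH these differences were -0.46 and -0.03. In treated minus opposite the 5′ probe sets of ACTB and GAPDH differed by -0.16 and -0.45, and in opposite minus control by 1.27 and -0.01. Their part in the differences above was not tested.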

How the data were processed

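RNA from xenografts of HT-29 cells was hybridised to 6 one-colour Affymetrix arrays of 54675 probe sets, 2 for each of 3 pools. The deposited values are log2 expression made with GCRMA, per the submitters' processing notes, and its version is not given in the sources used here. The log2 scale was read from the values, which run from 2.37 to 14.5. Array depth does not apply, and the number of arrays limits only the precision of a pool mean. A comparison of conditions is limited by the single pool per group. Probe sets were named through GEO's platform annotation, with symbols updated by Entrez identifier to RefSeq. Of the probe sets 41097 named 1 gene, 1801 several and 11777 none.

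Pool means, their differences and counts by size were computed with no test, as the labels call the arrays technical replicates of pools. The members and lists were chosen with earlier results of these data known. All members were named. Of other pathway lists the called genes were named, or the 3 with the largest difference where over 5 were called, and of marker lists up to 3 detected genes or the 2 with the largest difference. The counting rule was tried on simulated data built from array error and from genes well above the floor in all pools. The simulated shifts lay above or below the sizes of the called members. That trial therefore cannot cover calls near the floor or differences between animals. Alternatives covered scaling, floor, minimum difference, averaging, probe set and leaving out each array. A scaling by the median of spike-in differences and the counting of shared probe sets were chosen after seeing the data. The calculations used pandas 2.3.3 and numpy 2.4.6 under Python 3.11.15, and matplotlib 3.10.9 drew the plots.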

Additional observations from a re-analysis of the deposited data

How the results depend on the processing

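Treated minus control held 6 higher and 2 lower genes, beside 11.5% and 11.4% of all detected genes. The higher ones numbered 1 with hybridisation controls, 1 with poly-A controls and 1 with the median of spike-in differences, 3 with the mean of probe sets and 1 at a minimum of 0.5. Under those scalings 6.72%, 7.36% and 5.91% of all genes were higher, in that order. The lower ones numbered 1 after quantile normalization (10.8% of all genes), 1 at a floor of 6 and 0 at 0.5. In treated minus opposite the 2 higher genes became 0 with all spike-ins, 0 with hybridisation controls, 1 with poly-A controls, 0 with the median of differences, 7 at 0.2 and 1 at 0.5. The 0 lower became 6, 8, 5 and 9 under those 4 scalings and 3 at 0.2. Of all genes 2.59%, 1.69%, 4.27% and 1.65% were higher and 31.4%, 46.5%, 20.0% and 50.3% lower under those 4. In opposite minus control the 0 higher became 10, 9, 3 and 9 under the same scalings, 3 with equal medians, 1 after quantile normalization and 5 at 0.2. The shares of all genes were 33.4%, 27.6%, 13.4% and 26.2%, then 12.2% with equal medians and 10.3% after quantile normalization. The 2 lower became 0 with all spike-ins, hybridisation controls, the median of differences and a minimum of 0.5. Of all genes 3.20%, 4.25% and 4.57% were lower under those scalings. The share of all genes was not recomputed for other minima, the floor of 6, averaged probe sets or left-out arrays.

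The sterol median in treated minus control (0.04) was -0.057 with hybridisation controls, -0.0395 with poly-A controls, -0.082 with the median of differences and 0.0175 with no floor. In treated minus opposite (0.08) it was -0.15 with all spike-ins, -0.22, -0.071 and -0.23 under the other 3 in that order, and 0.04 with equal medians. In opposite minus control (-0.03) it was 0.21 with all spike-ins, then 0.17, 0.041 and 0.16. The fatty acid median in treated minus control (0.13) was 0.0265 with hybridisation controls, 0.044 with poly-A controls and 0.0014 with the median of differences, and 0.11 after quantile normalization. In treated minus opposite (0.00) it was -0.23, -0.30, -0.15 and -0.31 under the 4 spike-in scalings, -0.0395 with equal medians, -0.0157 after quantile normalization and 0.12 at a floor of 6. In opposite minus control (0.04) it was 0.28, 0.24, 0.11 and 0.23 under those 4, 0.091 with equal medians, 0.10 at a floor of 6 and -0.0035 with the mean of probe sets. The spike-in shifts follow from their construction, and for the other settings the cause was not tested.

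Leaving out each array in turn gave 4 to 6 higher and 1 to 2 lower genes in treated minus control, 2 to 3 and 0 to 1 in treated minus opposite, and 0 to 2 and 2 to 2 in opposite minus control. The sterol medians ran from 0.0275 to 0.053, 0.06 to 0.10 and -0.05 to 0.02, and the fatty acid medians from 0.11 to 0.13, -0.0015 to 0.0015 and 0.033 to 0.0745. Without control array 1, ACAT2 and HMGCS1 were higher in opposite minus control, and without control array 2 SQLE was. Without treated array 1, LPIN1 was lower, and without opposite array 2, INSIG1 higher, in treated minus opposite. No called value changed sign under these alternatives. No paired analysis was possible because the differences come from no test and the numbers name technical arrays of 1 pool. FASN and STARD4 lay near the floor of 5, where the signal over background limits the precision.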

Other observations

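Genes that use isoprenoids and genes of fatty acid oxidation were read beside the synthesis genes. Of 7 detected isoprenoid users 2 were higher and 0 lower in treated minus control, beside 11.5% and 11.4% of all detected genes, with a median difference of 0.17. NUS1, a subunit of the enzyme that makes dolichol chains, was higher in the treated pool than in control, at 6.02 and 6.05 on treated, 6.11 and 6.10 on opposite and 5.54 and 5.56 on control arrays (0.49). It was also higher in the opposite than in the control pool (0.56). ICMT, which methylates prenylated proteins, was higher in the treated pool than in control (0.41) and than in the opposite pool (0.49), with 6.07 and 6.10 on treated, 5.55 and 5.64 on opposite and 5.70 and 5.65 on control arrays.

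Of 11 detected genes of fatty acid oxidation 1 was lower than control in the treated pool and 0 were higher, beside 11.4% and 11.5% of all detected genes, a share near that background, with a median difference of -0.07. That gene was ETFB, a subunit of the electron carrier of the pathway, at 8.55 and 8.59 on treated against 8.87 and 8.89 on control arrays (-0.31). In the opposite pool ACADM, a medium-chain dehydrogenase, was higher than in control by 0.32 and ACAA2, a mitochondrial thiolase, by 0.38, beside 8.99% of all detected genes. None of the 11 was called between treated and opposite pools, beside 11.1% higher and 6.68% lower of all detected genes.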
